A study of Mus musculus with 3 samples.

Results

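The nuclei described here come from the mouse olfactory bulb and fall into a pair of clusters, mostly of inhibitory neurons, of the deposited per-nucleus table. A set of 81 nuclei in the first of them, described below, was low in the genes of GABA synthesis. Cluster 8, in which calbindin 1 (Calb1) was highest, is called the Calb1 cluster, and cluster 7, in which calbindin 2 (Calb2, calretinin) was highest, the Calb2 cluster. All nuclei listed under these cluster numbers were taken, which gave 1356 nuclei of the Calb1 cluster and 1401 of the Calb2 cluster out of 31703 nuclei in 22 clusters. The labels give the animals as adult C57Bl/6 mice. In each of 3 mice a retrogradely transported adeno-associated virus with a CAG promoter and a nuclear green fluorescent protein (rAAVretro-CAG-H2B-GFP) had been placed in piriform cortex and the anterior olfactory nucleus, and fluorescent nuclei of the bulb were sorted and sequenced as 1 single-nucleus library per mouse. No mouse was left without virus, and the sort was aimed at projection neurons, so that the nuclei of these clusters are those that the virus and the gate let through. UMIs (unique molecular identifiers, counts of captured RNA molecules) were summed per mouse and cluster, and the comparison was of 3 against 3 libraries, with the 2 clusters of a mouse treated as a pair.

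Around each glomerulus of the bulb, where sensory axons meet the dendrites of projection neurons, sit small interneurons known as periglomerular cells. Classically they are divided by the calcium-binding protein they hold (calbindin or calretinin) or by the dopamine-synthesizing enzyme tyrosine hydroxylase, with little overlap between the kinds. Calretinin cells are known as the most numerous of these kinds and are added to the bulb throughout life, and calbindin cells arise mostly around birth.

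The Calb1 cluster held 223, 872 and 261 nuclei of mice 1, 2 and 3, and the Calb2 cluster held 254, 904 and 243. These were 3.82%, 4.13% and 5.49% of all nuclei of the mouse for the Calb1 cluster (mean 4.48% ± 0.89, SD, n = 3) and 4.35%, 4.28% and 5.11% for the Calb2 cluster (4.58% ± 0.46). With all nuclei, the clusters were of like size within each mouse. The Calb2 cluster was the larger in mice 1 and 2 and the smaller in mouse 3. Among nuclei with at least 1500 genes, the Calb1 cluster was the larger in every mouse. It then held 3.88%, 4.18% and 5.73% of nuclei of mice 1, 2 and 3, against 2.76%, 3.68% and 4.47% in the Calb2 cluster. With 3 pairs, an exact paired test cannot go below p = 0.25 and was not run. Nuclei of the Calb1 cluster were deeper in every mouse, with a median of 6779, 7105 and 8982 UMIs against 3757, 4505 and 5062, and the summed libraries ranged from 2013251 to 7782222 UMIs against 1129463 to 5417918. For that reason counts of genes are also given with the libraries of a mouse thinned to equal UMIs, and shares of nuclei with a UMI after each nucleus was thinned to 3000 UMIs. The pair of clusters shared 1 barcode between mice 1 and 2 and none between the other mice.

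The clusters were drawn by the authors on the same counts that are compared here. The p-values therefore measure how far a difference exceeds the spread between mice, given these clusters, and are no test of whether the clusters exist. The genes of the labels are given as a description for the same reason.

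Calb1 (chr4:15881264-15908064, GRCm38, plus strand) encodes a calcium buffer and stood at 108, 109.7 and 74.7 CPM (the UMIs of the gene per 1000000 UMIs of the library) in the Calb1 cluster of mice 1, 2 and 3. In the Calb2 cluster it stood at 1.77, 5.91 and 2.15 CPM. The log2 fold change was 4.61 ± 0.27 (SE). Of all 22 clusters, Calb1 was highest in the Calb1 cluster (mean 97.6 CPM) and next in cluster 21 (14.8 CPM). Foxp2 (chr6:14901349-15441977, plus strand), a forkhead transcription factor, was at 1636, 1898 and 1377 CPM against 16.8, 104 and 15.03 CPM (log2 fold change 5.55 ± 0.47). Its libraries of the clusters did not overlap either, and its highest value in the Calb2 cluster was that of mouse 2.

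Calb2 (chr8:110137502-110168210, minus strand) was at 3007, 2046 and 2287 CPM in the Calb2 cluster and at 101, 101 and 41.8 CPM in the Calb1 cluster (log2 fold change -4.93 ± 0.27). All log2 fold changes are the Calb1 over the Calb2 cluster, so that a negative value is higher in the Calb2 cluster. Grem1 (chr2:113746164-113758646, minus strand), a secreted antagonist of bone morphogenetic proteins (BMPs), was at 172, 130.5 and 169.6 CPM against 2.48, 4.24 and 3.15 CPM, with a log2 fold change of -5.35 ± 0.22. Both genes were highest of all clusters in the Calb2 cluster, with cluster 15 next for Calb2 (1024 CPM) and cluster 20 next for Grem1 (51.1 CPM).

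The other genes taken from the labels' cell types were less even. Nxph1, a secreted ligand of neurexins that had been listed as a Calb1 marker, was far higher in the Calb2 cluster, at 5961, 4197 and 5924 CPM against 237, 257 and 226 CPM. Sp8, a zinc-finger factor listed for the Calb2 type, was higher in the Calb2 cluster as listed (log2 fold change -2.39). Prkca and Cpne4 did not pass the test (adjusted p of edgeR 0.0686 and 0.110).

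**Figure D1:**
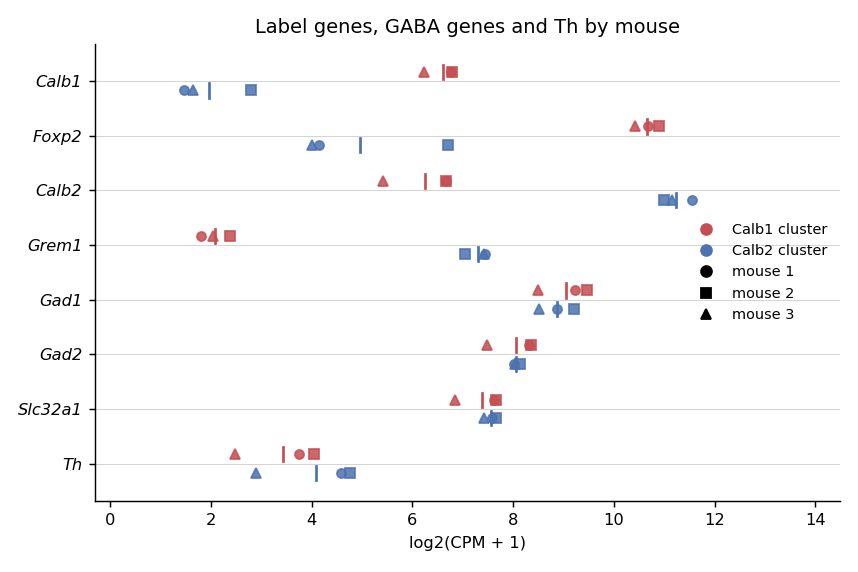
Level of the label genes, of genes of GABA transmission and of Th in each mouse, as log2(CPM + 1) on the horizontal axis, with circles, squares and triangles for mice 1, 2 and 3, red for the Calb1 cluster and blue for the Calb2 cluster, and a vertical bar at the mean of the log values. Calb1, Foxp2, Calb2 and Grem1 lie apart between the clusters, and the points of Gad1, Gad2 and Slc32a1 are mixed.

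Counted per nucleus, the label genes differed widely in how often they were caught. After thinning to 3000 UMIs, a Calb1 UMI was seen in 14.4%, 14.7% and 16.7% of nuclei of the Calb1 cluster and in 0.549%, 1.17% and 0.446% of the Calb2 cluster. Cluster 9, which carries astrocyte markers and should lack the gene, gave 0%, 0.761% and 0.546%, near the shares of the Calb2 cluster. Foxp2 was seen in 76.7%, 83.8% and 69.8% of Calb1-cluster nuclei, against 3.85%, 6.26% and 4.02% in the Calb2 cluster and 3.70%, 6.55% and 5.46% in cluster 9. Thus Foxp2 was caught in most nuclei of the Calb1 cluster and the transcript of the name-giving gene in a minority.

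In the Calb2 cluster, a Calb2 UMI was seen in 78.0%, 81.5% and 82.6% of nuclei and a Grem1 UMI in 28.6%, 26.3% and 24.6%. The Calb2 shares of the Calb1 cluster, 14.9%, 24.1% and 12.8%, were close to the 17.8%, 27.5% and 11.5% of cluster 9. In a second random thinning, Calb2 was seen in 11.43%, 29.55% and 12.2% of Calb1-cluster nuclei with a Calb1 UMI. In the other nuclei of the cluster it was seen in 16.11%, 21.67% and 11.98%. The source of these Calb2 UMIs was not tested. Grem1 was seen in 1.40%, 1.29% and 1.16% of Calb1-cluster nuclei. Nuclei with UMIs of both Calb1 and Calb2 made up 1.86%, 4.11% and 1.94% of the Calb1 cluster and 0.549%, 1.04% and 0.446% of the Calb2 cluster. Thinning left out 8, 20 and 3 shallower nuclei of the Calb1 cluster and 72, 137 and 19 of the Calb2 cluster, and without thinning the shares were higher, with a mean of 20.4% for Calb1 in the Calb1 cluster and 86.3% for Calb2 in the Calb2 cluster.

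**Figure D2:**
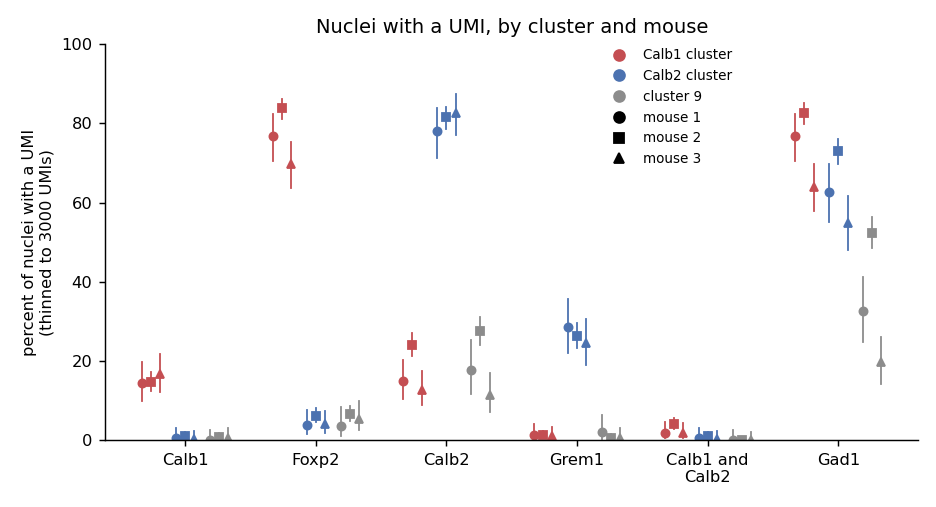
Percent of nuclei with at least 1 UMI of the named gene after each nucleus was thinned to 3000 UMIs, for the Calb1 cluster (red), the Calb2 cluster (blue) and the astrocyte-marker cluster 9 (grey), with circles, squares and triangles for mice 1, 2 and 3 and bars for exact (Clopper-Pearson) 95% intervals of counting error. Calb1 is caught in 14.4% to 16.7% of Calb1-cluster nuclei and Foxp2 in 69.8% to 83.8%, and Calb2 in 78.0% to 82.6% of Calb2-cluster nuclei.

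Over all nuclei, no gene of GABA synthesis, loading or uptake was called between the clusters. Gad1, which makes GABA, was at 601, 704 and 358 CPM in the Calb1 cluster and at 468, 589.7 and 367 CPM in the Calb2 cluster (log2 fold change 0.24 ± 0.14, adjusted p = 0.284). Without nuclei above 2 times the median UMI number it was 0.76, which is still under the fold of 2. Gad2, the second GABA-synthesizing enzyme, had a log2 fold change of 0.04 ± 0.17 (adjusted p = 0.908), and Slc32a1, the vesicular GABA transporter, of -0.13 ± 0.15 (0.607). For Slc6a11, a transporter that takes GABA up again, it was 0.63 ± 0.29 (0.167).

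Abat and Aldh5a1, the enzymes of GABA breakdown, were lower in the Calb1 cluster by less than the fold of 2 asked of a call. Abat was at 126, 142 and 96.4 CPM against 189, 169.8 and 189.6 CPM (log2 fold change -0.55 ± 0.15, adjusted p = 0.033), and Aldh5a1 at 32.8, 38.8 and 24.0 CPM against 51.4, 47.8 and 52.2 CPM (-0.60 ± 0.18, 0.049). Of 7 tested GABA genes, edgeR and DESeq2 each called 0 in either direction, where edgeR called 12.1% of all genes tested, so that 0 of 7 is near the share over all genes. They had 2 at an unadjusted p under 0.05 by either tool, and their median log2 fold change was 0.04.

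Dopamine genes were low in both clusters. Th, tyrosine hydroxylase, was at 12.4, 15.6 and 4.58 CPM in the Calb1 cluster and 23.0, 26.2 and 6.44 CPM in the Calb2 cluster, near the 13.7, 19.2 and 7.55 CPM of cluster 9, and did not pass the test (-0.71 ± 0.26, adjusted p = 0.0856). The dopamine transporter Slc6a3 was the sole one of 5 tested dopamine genes called, at 1.49, 0.257 and 0 CPM against 8.85, 4.25 and 7.87 CPM (-3.79 ± 0.70, 0.00488). Slc18a2, the vesicular monoamine transporter, was at 13.4, 8.74 and 14.6 CPM against 0.885, 5.54 and 5.01 CPM (1.42 ± 0.47, 0.068) and passed the test in 4 of the 12 other settings tried. Maoa, an enzyme of monoamine breakdown, did not pass it (adjusted p = 0.21).

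A small set of nuclei within the Calb1 cluster bears on many of the values that follow. Fam19a1 (Tafa1, chr6:96113154-96657198, plus strand), which encodes a secreted chemokine-like protein, was at 1277, 157 and 2529 CPM in the Calb1 cluster and at 5.31, 2.77 and 6.44 CPM in the Calb2 cluster. Its UMIs came almost all from 81 nuclei with at least 3 Fam19a1 UMIs each, a limit chosen after the values had been seen. These were 15, 12 and 54 nuclei of mice 1, 2 and 3, or 6.73%, 1.38% and 20.7% of the cluster's nuclei and 16.4%, 3.40% and 42.5% of its UMIs. A further 36 nuclei of the cluster had 1 or 2 such UMIs and 1239 had none, and in the Calb2 cluster 1 of 1401 nuclei had 3 or more.

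The 81 nuclei were deep, with a median of 17710, 21100 and 24850 UMIs against 6286, 7052 and 7716 in the other nuclei of the cluster. Foxp2 stood at 6.06, 314 and 119 CPM in them and at 1956, 1954 and 2306 CPM in the others. Gad1 stood at 57.6, 212 and 39.1 CPM against 708, 722 and 593 CPM, and in each mouse was also below the 238, 378 and 125 CPM of the astrocyte-marker cluster 9. Any UMI of Gad1, Gad2 or Slc32a1 was found in 60%, 83.3% and 46.3% of them and in 96.6%, 99.0% and 97.6% of the others, although the others were shallower.

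Calb1 stood at 57.6, 7.57 and 38.4 CPM in them and at 118, 113 and 101 CPM in the others. The Calb2 cluster was lower in each mouse, at 1.77, 5.91 and 2.15 CPM. The nuclei rich in Fam19a1 thus carried less Foxp2, Calb1 and Gad1 than the other nuclei of the Calb1 cluster in each mouse. Nfia, a transcription factor picked here for its difference after the values had been seen, was at 2054, 1010 and 1475 CPM in them and at 17.2, 11.3 and 8.95 CPM in the others. Slc17a7, the vesicular glutamate transporter, was at 103, 87.0 and 197 CPM against 25.5, 29.5 and 27.8 CPM. No name is given to these nuclei, and their values are a description with no test.

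Because mouse 3 holds most of them, values of the Calb1 cluster are also given without them for the named genes called whose mean there, if above 1 CPM, moves by over 1.5 times, and for some others. The mean of Fam19a1, by which they were chosen, is 1321 CPM with them and 4.41 CPM without them, a fall that the choice itself fixes. The mean of Foxp2 went from 1637 to 2072 CPM. Without them Gad1 stood at 708, 722 and 593 CPM against 468, 589.7 and 367 CPM in the Calb2 cluster, and Gad2 at 374, 334 and 297 CPM against 259, 280 and 260.5 CPM. The 3 libraries of the Calb1 cluster then lay above the 3 others for both genes, which they did not with all nuclei. Of the 55 genes named here as higher in the Calb1 cluster, 10 lost over 50% of their mean, among them Fam19a1 by construction, and 52 kept their 3 libraries above the 3 of the Calb2 cluster, the exceptions being Fam19a1, Cacna1e and Sv2b.

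**Figure D3:**
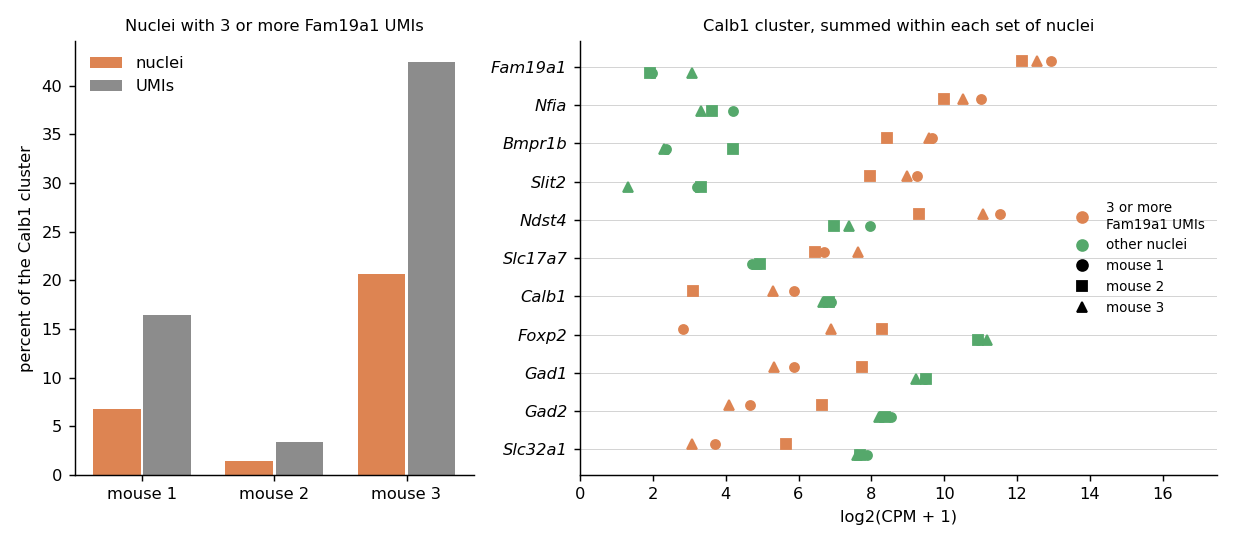
Nuclei of the Calb1 cluster with at least 3 Fam19a1 UMIs. On the left are their percent of the nuclei and of the UMIs of the cluster in each mouse, highest in mouse 3 at 20.7% and 42.5%, and on the right the CPM of selected genes in these and in the other nuclei of the cluster on a log axis, where Gad1, Gad2, Slc32a1 and Foxp2 are lower and Fam19a1, Nfia and Bmpr1b are higher in them.

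Over all 12353 genes tested, 907 (7.34%) were called higher in the Calb1 cluster and 588 (4.76%) higher in the Calb2 cluster at an adjusted p under 0.05 and a fold above 2, with a median log2 fold change of 0.00 over all genes tested. The 3 libraries of one cluster lay above the 3 of the other in 879 and 574 of these calls (7.12% and 4.65% of the genes tested), and in 33.8% of the genes tested whatever the call. Without replicate 1 the counts were 571 and 422. With the libraries of a mouse thinned to equal UMIs the counts were 800 and 510 of 10915 genes tested. Of the 907 genes, 867 had mean CPM over 2 times apart with all nuclei and 764 without the 81 nuclei, and 14 turned to the other side. Of the 588 genes, 580 and 534 did, and none turned.

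Zic5 had the largest log2 fold change of the genes named as higher in the Calb2 cluster and Zic2 the fourth, and Zic1 and Zic4 were named from the list of transcription factors. The Zic family holds zinc-finger transcription factors of the developing forebrain and cerebellum. Zic5 was at 32.8, 29.9 and 28.6 CPM in the Calb2 cluster and at 0, 0.386 and 0.286 CPM in the Calb1 cluster (log2 fold change -6.48 ± 0.45, adjusted p = 1.98e-05). Zic2 was at 95.6, 78.8 and 75.1 CPM against 0.993, 2.06 and 0.858 CPM (-5.68 ± 0.26, 4.14e-06). Zic1 was at 353, 249 and 330 CPM against 12.9, 13.8 and 7.44 CPM (-4.67 ± 0.23, 4.14e-06), and Zic4 at 104, 72.4 and 107 CPM against 2.98, 5.14 and 2.29 CPM (-4.48 ± 0.29, 1.35e-05). These 4 genes thus moved together, and their libraries of the Calb1 and Calb2 clusters did not overlap.

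The Zic genes named here lie as 2 pairs in the genome, each on opposite strands. The starts of Zic2 (chr14:122475435-122479852, plus strand) and Zic5 (chr14:122456795-122465677, minus strand) are 9758 bases apart. Those of Zic1 (chr9:91358058-91365810, minus strand) and Zic4 (chr9:91362413-91389348, plus strand) are 3397 bases apart, and the gene models of this pair overlap, so that their counts are separate only as far as the counting used strand. Among the 22 clusters, Zic1 was highest in the Calb2 cluster with cluster 18 next (249 CPM), and Zic2, Zic4 and Zic5 were second there to cluster 18.

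Promoter sequence is shown for members of the pairs, for Grem1 and Nppa, which were higher in the Calb2 cluster, and for Vwc2l, which was higher in the Calb1 cluster, as the stretches at which transcripts of the most divided genes start. The sequences are from RefSeq (GRCm38.p6), 5′ to 3′ on the strand of the gene, and hold the bases before the start that lie outside annotated exons. Capitals mark the letters of a GC box (GGGCGG) or a TATA box (TATAAA), searched on both strands with overlaps between the motifs allowed. The stretches are chr2:113758649-113758898 for Grem1, chr9:91365811-91366018 for Zic1, chr14:122465678-122465908 for Zic5, chr4:148000472-148000721 for Nppa and chr1:70725465-70725714 for Vwc2l.
Grem1: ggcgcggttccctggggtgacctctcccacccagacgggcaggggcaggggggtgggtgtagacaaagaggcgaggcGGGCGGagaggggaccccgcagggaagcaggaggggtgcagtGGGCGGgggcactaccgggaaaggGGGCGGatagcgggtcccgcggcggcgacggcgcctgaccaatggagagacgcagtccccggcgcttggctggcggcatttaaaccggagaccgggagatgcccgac
Zic1: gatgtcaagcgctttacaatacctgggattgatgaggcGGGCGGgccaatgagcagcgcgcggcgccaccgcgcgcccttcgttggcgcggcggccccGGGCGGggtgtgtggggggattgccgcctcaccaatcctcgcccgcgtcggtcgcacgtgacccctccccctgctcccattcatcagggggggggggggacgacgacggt
Zic5: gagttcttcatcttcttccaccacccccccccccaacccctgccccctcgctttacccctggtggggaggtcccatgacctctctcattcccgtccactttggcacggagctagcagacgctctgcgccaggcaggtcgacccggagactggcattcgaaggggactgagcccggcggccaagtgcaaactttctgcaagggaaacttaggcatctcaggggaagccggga
Nppa: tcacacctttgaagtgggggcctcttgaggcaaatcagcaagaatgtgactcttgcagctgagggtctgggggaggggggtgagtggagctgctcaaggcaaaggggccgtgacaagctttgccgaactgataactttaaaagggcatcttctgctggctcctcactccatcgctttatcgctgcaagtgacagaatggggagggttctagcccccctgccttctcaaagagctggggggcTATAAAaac
Vwc2l: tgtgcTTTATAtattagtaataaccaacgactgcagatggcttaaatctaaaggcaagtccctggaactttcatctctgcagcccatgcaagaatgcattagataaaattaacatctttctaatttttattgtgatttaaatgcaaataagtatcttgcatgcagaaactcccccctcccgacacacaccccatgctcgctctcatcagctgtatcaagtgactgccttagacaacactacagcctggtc
The Grem1 stretch holds 3 GC boxes and that of Zic1 holds 2. The Zic5 stretch holds neither motif. The Nppa stretch holds a TATA box close to the start, and that of Vwc2l holds 1 on the opposite strand far from it. A GC box is found in 32.7% and a TATA box in 12.4% of the 32851 promoter stretches of 250 bases in the RefSeq table.

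Pde5a, which breaks down cyclic GMP, was at 556, 399 and 641 CPM against 7.95, 5.91 and 4.58 CPM (-6.36 ± 0.23, adjusted p = 2.22e-06). Egf, the precursor of epidermal growth factor, was at 229, 171 and 214 CPM against 4.97, 4.88 and 3.15 CPM (-5.44 ± 0.20, 2.22e-06), and Nppa, the precursor of atrial natriuretic peptide, at 336, 182 and 159.6 CPM against 5.96, 5.14 and 1.43 CPM (-5.61 ± 0.24, 3.95e-06). Pde5a, Egf and Nppa were each highest of the 22 clusters in the Calb2 cluster.

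Bmp7, a BMP ligand, was called beside its antagonist Grem1, at 25.7, 17.4 and 27.9 CPM against 0.993, 0.386 and 0.572 CPM (-5.20 ± 0.42). Sdc1, a cell-surface heparan sulphate proteoglycan, had a log2 fold change of -6.07 ± 0.49, and Apold1 and Adgrl4, both better known from vessel walls, of -5.33 ± 0.24 and -5.25 ± 0.37. The listed endothelial and mural markers summed to 5.46 to 7.84 CPM in the Calb1 and 11.5 to 13.3 CPM in the Calb2 cluster.

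In the Calb1 cluster the 10 genes of largest change were Foxp2, Fam19a1, Bmpr1b, Vwc2l, Cdh23, Qrfpr and 4 genes without a protein product. Vwc2l, a secreted protein with a von Willebrand factor C domain, was at 277, 257 and 173 CPM against 0, 11.8 and 1.43 CPM (5.28 ± 0.45, adjusted p = 6.44e-05) and was highest of the 22 clusters here. Cdh23, the cadherin of hair-cell tip links, was at 156, 87.1 and 57.8 CPM against 0.885, 3.14 and 3.58 CPM (5.02 ± 0.33, 1.46e-05). Qrfpr, the receptor of the peptide QRFP, was at 29.3, 19.5 and 21.2 CPM against 0, 0.738 and 0 CPM (5.40 ± 0.53, 0.000138).

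Without the nuclei rich in Fam19a1 the mean of Vwc2l went from 236 to 297.8 CPM and that of Cdh23 from 100.3 to 125 CPM, and that of Qrfpr fell from 23.3 to 16.99 CPM, with mouse 3 at 7.46 CPM. Bmpr1b, a receptor of BMPs, was at 137, 28.5 and 328 CPM against 0.885, 2.77 and 0 CPM (5.51 ± 0.64, adjusted p = 0.00034), and its mean in the Calb1 cluster fell from 164 to 8.52 CPM without them. The mean of the long noncoding RNA Gm28928 fell likewise from 130.2 to 7.19 CPM. The noncoding AC129186.1 (5.56 ± 0.42), CT010465.1 (5.15 ± 0.48) and A230077H06Rik (5.51 ± 0.50) were at 34.7, 36.3 and 19.2 CPM without them and at 37.0, 29.6 and 36.6 CPM with them, each above 0.485 CPM or less in the Calb2 cluster.

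**Figure D4:**
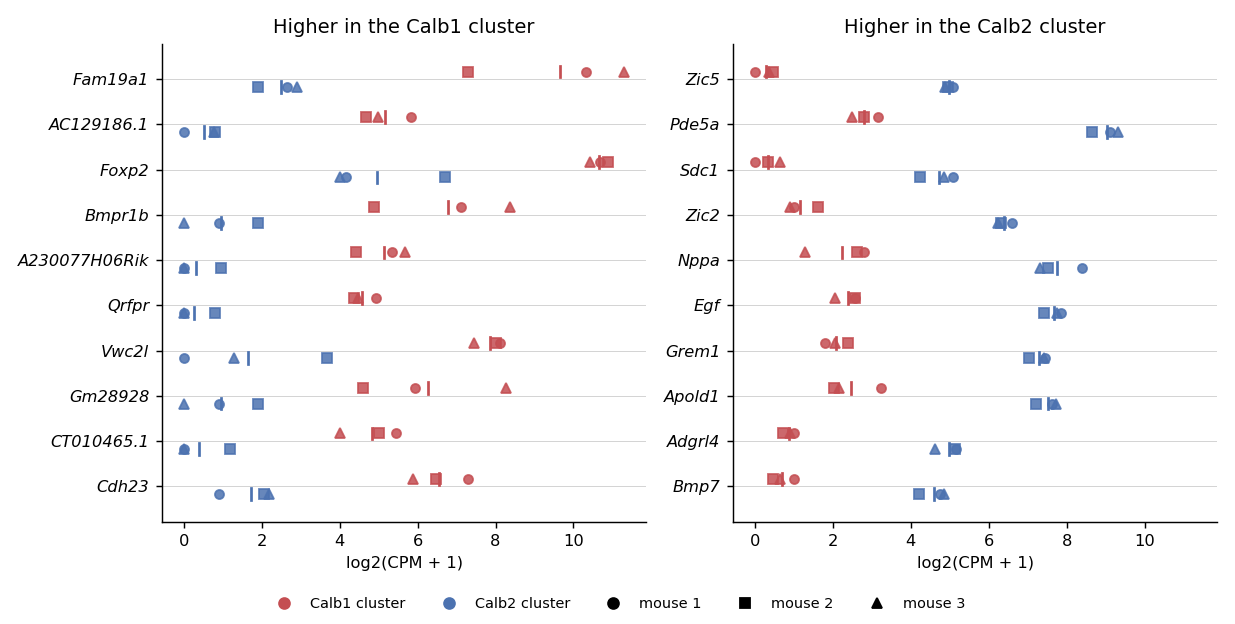
The 10 genes of largest log2 fold change in each direction among genes called, without overlap of libraries and with a mean of at least 20 CPM in the higher cluster, as log2(CPM + 1) per mouse, with circles, squares and triangles for mice 1, 2 and 3, red for the Calb1 and blue for the Calb2 cluster. The 3 points of Fam19a1, Bmpr1b and Gm28928 in the Calb1 cluster lie far apart, with mouse 3 highest, and those of Pde5a, Egf and Zic5 in the Calb2 cluster lie close together.

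Among the 544 tested genes of 20 functional lists, 137 were called higher in the Calb1 cluster and 82 in the Calb2 cluster. Over all 12353 genes tested the shares were 7.34% and 4.76%, and the counts of each list below stand beside these shares. Calcium-binding proteins, the class behind the names, gave 6 and 5 calls of 23 tested, with a median log2 fold change of -0.23. Beside Calb1 itself, Hpcal1, a neuronal calcium sensor, was higher in the Calb1 cluster at 28.3, 31.4 and 30.3 CPM against 5.31, 1.11 and 1.43 CPM (4.00 ± 0.42, adjusted p = 0.000205). Kcnip4, Cabp1 and Ncald were called on that side too. Caln1 (calneuron 1) had a log2 fold change of 4.51 ± 0.35, with its mean falling from 117 to 30.0 CPM without the nuclei rich in Fam19a1.

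On the Calb2 side stood Calb2, Kcnip2, Necab1, Scgn and Kcnip1. Kcnip2, a calcium sensor that joins A-type potassium channels, was at 398, 235 and 366 CPM against 12.4, 7.97 and 22.9 CPM (-4.54 ± 0.23, adjusted p = 4.17e-06). Necab1, an EF-hand protein, was at 419.7, 336 and 439 CPM against 59.1, 82.6 and 51.5 CPM (-2.58 ± 0.20). The calcium sensor Scgn (secretagogin) had a log2 fold change of -2.03 and Kcnip1 of -1.21.

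Transcription factors gave 9 calls on the Calb1 side and 17 on the Calb2 side, of 62 tested, with a median of -0.24. Foxp4, a relative of Foxp2, was at 47.7, 47.0 and 45.2 CPM in the Calb1 cluster against 3.54, 3.14 and 0 CPM (4.23 ± 0.38, adjusted p = 8.62e-05). Tshz2, a teashirt zinc-finger factor, was at 139, 293 and 245 CPM against 23.9, 26.4 and 22.9 CPM (3.26 ± 0.20, 9.64e-06). Zfhx4, Bcl11b, Thrb, Meis1, Tshz1 and Klf7 completed that side with log2 fold changes of 1.17 to 3.09.

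The Calb2 side held, beside Zic1, Zic2 and Zic4, several factors known from the making of bulb interneurons. Sp8 (-2.39), Sp9 (-1.60), Pax6 (-2.58), Etv1 (-2.99), Dlx5 (-1.76), Dlx6 (-2.29) and Sall3 (-2.29) were all called. Dlx5 was at 26.8, 49.99 and 17.7 CPM in the Calb1 cluster and 126, 101 and 100.2 CPM in the Calb2 cluster. Rorb, a nuclear receptor, had the largest fold of the remaining 7 at -4.20. The teashirt family was split, with Tshz1 and Tshz2 on the Calb1 and Tshz3 (-1.40) on the Calb2 side.

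Genes of the BMP and TGF-beta pathway, in which extracellular antagonists hold ligands off their receptors, gave 6 and 7 calls of 27 tested and a median of 0.03. Ligands were divided, with Bmp7, Tgfb2 (-1.08) and Tgfb3 (-1.48) higher in the Calb2 cluster and Bmp6 and Inha (1.42) in the Calb1 cluster. Bmp6 was at 20.9, 12.2 and 11.7 CPM against 3.54, 3.14 and 5.01 CPM (1.92 ± 0.37, adjusted p = 0.00562), and lost its call without replicate 1 (0.0656). Of the antagonists, Grem1 was higher in the Calb2 cluster. Among follistatin-like genes, Fstl5 was at 910.2, 684 and 969 CPM in the Calb2 cluster against 64.1, 75.8 and 137 CPM (-3.21 ± 0.21), and Fstl1 was higher in the Calb1 cluster (1.31). Among receptors, Bmpr1b and Tgfbr3 (2.33 ± 0.42) stood on the Calb1 side and Acvr1 (-1.16) and Acvr1c (-2.17) on the Calb2 side.

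GABA receptor genes gave 7 calls on the Calb1 side and 1 on the Calb2 side, of 21 tested, with a median of 0.31. Gabrg3, a gamma subunit of GABA-A receptors, was at 1300, 1044 and 1534 CPM in the Calb1 cluster against 121, 139 and 68.7 CPM (3.61 ± 0.29, adjusted p = 4.97e-05). Gabra3, an alpha subunit, was at 138, 136 and 96.7 CPM against 18.6, 22.2 and 15.7 CPM (2.72 ± 0.16), and Gabra5 and Gabrg1 were called on the same side with log2 fold changes of 1.71 and 1.41. Kctd16, an auxiliary subunit of GABA-B receptors, had a log2 fold change of 3.06 ± 0.21, and the GABA-B subunit Gabbr2 of 1.37.

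Ionotropic glutamate receptors gave 8 and 4 calls of 29 tested. Cacng4, an auxiliary AMPA receptor subunit, was at 67.1, 89.6 and 60.7 CPM in the Calb1 cluster against 6.20, 8.12 and 6.44 CPM (3.43 ± 0.19). The kainate receptor subunits Grik4, Grik3 and Grik1 were called on the same side, with log2 fold changes of 2.94, 2.38 and 1.23. Grik2 (-0.66, adjusted p = 0.0291) and Grik5 (-0.01) were not called. Cacng5, another auxiliary AMPA receptor subunit, was higher in the Calb2 cluster (-1.26 ± 0.17).

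Of the NMDA receptor subunits, Grin2c was at 64.6, 41.5 and 52.2 CPM in the Calb2 cluster against 0.993, 2.70 and 0.858 CPM (-4.67 ± 0.35, adjusted p = 2.99e-05), and Grin2d at 117, 87.9 and 108 CPM against 20.4, 18.6 and 13.2 CPM (-2.52 ± 0.18, 2.27e-05). Grin3a was called on the Calb1 side (1.59). Grin2a (0.78), Grin2b (-0.21) and Grin1 (0.32) were not called. Of the AMPA receptor subunits, Gria3 was higher in the Calb1 cluster (2.29) and Gria4 was higher in the Calb2 cluster (-1.17).

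Metabotropic glutamate receptors gave 2 calls on each side of 9 tested. Grm5, a group I receptor, was at 1081, 1339 and 1915 CPM in the Calb1 cluster against 262, 504 and 235 CPM (2.19 ± 0.29). Grm7, a presynaptic receptor, was higher in the Calb1 cluster (1.79 ± 0.15) and Grm2, another one, in the Calb2 cluster (-2.39 ± 0.22).

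Receptors of acetylcholine and the monoamines gave 5 calls on the Calb1 side and 1 on the Calb2 side, of 18 tested. Htr1f, a serotonin receptor, was that 1 and stood at 1641, 1515 and 2135 CPM in the Calb2 cluster against 103, 147 and 76.9 CPM (-3.99 ± 0.26, adjusted p = 1.44e-05). Another serotonin receptor, Htr2c, was at 253, 71.96 and 414 CPM in the Calb1 cluster against 11.5, 12.4 and 12.2 CPM (3.84 ± 0.41), and its mean fell from 246 to 92.5 CPM without the nuclei rich in Fam19a1. The nicotinic subunit Chrna7 was at 68.1, 98.3 and 107 CPM against 15.1, 16.8 and 21.5 CPM (2.43 ± 0.16, 1.76e-05). Chrna3, Adra2a and Adrb1 were called with it.

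Neuropeptide genes gave 2 and 4 calls of 21 tested, with a median of -0.56. These were 9.52% and 19.05%, against 7.34% and 4.76% over all genes, so that the Calb1 side was near the share over all genes. Vgf, a precursor of secreted peptides, was at 134.6, 84.0 and 88.4 CPM in the Calb1 cluster against 13.3, 11.3 and 10.7 CPM (3.08 ± 0.18). Vip, vasoactive intestinal peptide, was at 40.7, 76.0 and 26.5 CPM in the Calb2 cluster against 5.96, 19.2 and 2.002 CPM (-2.44 ± 0.28), with mouse 2 highest in both clusters. Tac2, the neurokinin B precursor, was at 21.3, 29.2 and 5.01 CPM against 2.48, 2.70 and 0.286 CPM (-3.36 ± 0.37). Nppa and Trh were called on the Calb2 side and Pthlh on the Calb1 side as well.

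Peptide receptors gave 5 and 4 calls of 19 tested. The neurokinin B receptor Tacr3 was higher in the Calb1 cluster, at 9.44, 20.6 and 10.0 CPM against 0.885, 1.48 and 2.86 CPM (3.19 ± 0.48, adjusted p = 0.00162), and so was the orexin receptor Hcrtr2 (3.68 ± 0.53). The kappa opioid receptor Oprk1 was higher in the Calb2 cluster, at 26.6, 26.8 and 24.3 CPM against 1.99, 3.21 and 2.58 CPM (-3.19 ± 0.30). Vipr1, a receptor of Vip, was at 33.6, 18.3 and 23.6 CPM in the Calb2 cluster against 5.46, 1.54 and 11.7 CPM (-2.25 ± 0.46, 0.00818), lost its call without replicate 1 (0.104) and stood at a mean of 0.751 CPM in the Calb1 cluster without the nuclei rich in Fam19a1. The cholecystokinin receptor Cckbr was called with them (-1.68 ± 0.31).

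Potassium channels gave 14 and 7 calls of 49 tested, with a median of 0.33. Kcnj12, an inward rectifier, was at 85, 78.4 and 93.7 CPM in the Calb2 cluster against 10.4, 6.43 and 6.01 CPM (-3.51 ± 0.21, adjusted p = 9.03e-06), and Kcnmb2, an auxiliary subunit of large-conductance calcium-activated channels, at 1406, 1051 and 1434 CPM against 167, 112 and 73.2 CPM (-3.47 ± 0.24). Modifier subunits of the Kcng family were divided. Kcng2 was higher in the Calb2 cluster (-1.98 ± 0.40) and lost its call without replicate 1 (adjusted p = 0.0635). Kcng1 had 143 UMIs in the Calb1 cluster and 3 in the Calb2 cluster, a ratio of 28.5 per library UMI with a 95% counting interval of 9.56 to 139.8. Kcnq3, a subunit of the M-current channel, was at 268, 137 and 515 CPM against 32.8, 50.4 and 20.7 CPM (2.88 ± 0.49), lost its call without replicate 1 (adjusted p = 0.073) and fell from a mean of 307 to 93.0 CPM without the nuclei rich in Fam19a1.

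Sodium, calcium and other cation channels gave 10 and 9 calls of 43 tested. Piezo2, a mechanically gated channel, was at 40.7, 32.7 and 33.6 CPM in the Calb2 cluster against 2.98, 1.93 and 3.15 CPM (-3.74 ± 0.29). Itpr1, the calcium release channel gated by inositol trisphosphate, was at 216, 195 and 262 CPM in the Calb1 cluster against 31.0, 19.6 and 20.04 CPM (3.32 ± 0.19). Scn2a, Scn3a and Scn2b were called on the Calb1 side too (1.14 to 1.57). Trpc7 (2.30 ± 0.68) and Cacna1e (1.68 ± 0.34) were called there too. Without replicate 1 both lost their call (adjusted p = 0.232 and 0.122), and their means fell from 23.9 to 6.76 CPM and from 284 to 160.4 CPM without the nuclei rich in Fam19a1.

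Synaptic adhesion genes gave 19 calls on the Calb1 side and 5 on the Calb2 side, of 57 tested, with a median of 0.40. Of the contactins, Cntn6 was called on the Calb1 side at 367, 221 and 219 CPM against 10.6, 14.6 and 3.58 CPM (4.62 ± 0.30, adjusted p = 1.44e-05) and Cntn3 at 406, 296 and 248 CPM against 23.9, 30.1 and 23.6 CPM (3.58 ± 0.19). Cntn4, Cntn5, Cntnap4 and the 3 Cntnap5 genes were called with them, and Cntnap3 on the other side (-2.10 ± 0.33). Cntn1 (-0.11), Cntn2 (-0.66) and Cntnap2 (-0.07) were not called. Cbln1 and Cbln2, secreted organizers of synapses, were called in the Calb1 cluster as well (3.13 and 3.26). In the Calb2 cluster Nectin3 was at 465, 322 and 540.3 CPM against 104.3, 104.3 and 76.7 CPM (-2.14 ± 0.20) beside Nxph1 (-4.41 ± 0.20).

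Cadherins and protocadherins gave 9 and 6 calls of 26 tested. Cdh11 was at 361, 244 and 229 CPM in the Calb1 cluster against 11.5, 24.9 and 12.9 CPM (3.96 ± 0.28), and Cdh13 at 463, 334 and 509.5 CPM against 31.9, 39.1 and 24.3 CPM (3.74 ± 0.25). Cdh12 (-2.10 ± 0.27), Pcdh11x (-2.68 ± 0.20) and Pcdh17 (-1.90 ± 0.15) were higher in the Calb2 cluster. Without the nuclei rich in Fam19a1 Cdh12 in the Calb1 cluster went from 94.9, 92.5 and 202.5 CPM to 63.6, 85.5 and 85.5 CPM. Of the 6 calls there, 3 were protocadherins, against 1 of 9 on the Calb1 side (Pcdh19, 2.50).

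Axon guidance genes gave 11 and 4 calls of 47 tested. Netrin receptors were divided. Unc5c was at 464, 201 and 919 CPM in the Calb1 cluster against 18.6, 16.98 and 11.5 CPM (4.69 ± 0.43, adjusted p = 9.27e-05) and Unc5d at 408, 261 and 423 CPM against 47.8, 29.9 and 40.1 CPM (3.25 ± 0.15). Dcc was at 1721, 1384 and 1961 CPM in the Calb2 cluster against 369, 239.6 and 588 CPM (-2.12 ± 0.19), and the netrin gene Ntn4 was higher there (-2.23 ± 0.20). Without the nuclei rich in Fam19a1 the mean of Unc5c fell from 528 to 255 CPM, that of Unc5d from 364 to 255 CPM, and that of Dcc from 399 to 188 CPM. The neuropilins, receptors of semaphorins, also took opposite sides, with Nrp2 (2.79) in the Calb1 and Nrp1 (-2.76 ± 0.20) in the Calb2 cluster. Ephb1, an ephrin receptor, was at 112, 96.6 and 79.8 CPM in the Calb1 cluster against 4.43, 6.83 and 2.86 CPM (4.18 ± 0.23).

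Genes of vesicle release gave 16 calls on the Calb1 side and 1 on the Calb2 side, of 45 tested, with a median of 0.59. Unc13c, which primes vesicles, was at 227, 377 and 307 CPM against 15.1, 38.9 and 31.5 CPM (3.46 ± 0.17, adjusted p = 4.17e-06), and Cadps2, which serves the release of dense-core vesicles, at 626, 286 and 383 CPM against 58.4, 38.9 and 64.4 CPM (2.99 ± 0.18). The active-zone genes Rims1, Rims2, Rims3, Rimbp2, Pclo and Erc2 were called on that side with log2 fold changes of 1.21 to 2.30. Cplx3, a complexin, was the sole call on the Calb2 side (-1.72). Sv2b was at 88.9, 21.2 and 253 CPM against 8.85, 11.8 and 10.7 CPM, lost its call without replicate 1 (adjusted p = 0.133), and its mean of 121 CPM fell to 9.21 CPM without the nuclei rich in Fam19a1.

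Nuclear noncoding RNAs gave 4 calls of 7 tested, all on the Calb1 side. Miat had a log2 fold change of 2.31 ± 0.26, and its mean fell from 61.9 to 29.2 CPM without the nuclei rich in Fam19a1. Snhg11 was at 4747, 3886 and 4049 CPM against 1472, 1712 and 1617 CPM (1.45 ± 0.17), and Meg3 at 7306, 6442 and 7272 CPM against 2866, 2815 and 3076 CPM (1.31). The median percent of mitochondrial UMIs beside them was 0.073, 0.122 and 0.049 in the Calb1 and 0.094, 0.154 and 0.080 in the Calb2 cluster. The part of depth and RNA quality in these differences was not tested beyond the thinning above.

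Genes of immature neurons did not go 1 way, with 3 calls on each side of 16 tested and a median of -0.43. Dcx, a microtubule protein of migrating neurons, was at 378, 352 and 298 CPM in the Calb2 cluster against 156, 234 and 105 CPM (-1.06 ± 0.17, adjusted p = 0.00254). Cd24a, at 41.6, 44.8 and 50.1 CPM against 7.45, 7.71 and 3.15 CPM (-2.85 ± 0.28), and Igfbpl1 (-1.74 ± 0.24) were called with it. Sox11, a factor of newborn neurons, was higher in the Calb1 cluster, at 78.0, 74.4 and 80.1 CPM against 29.2, 34.0 and 28.6 CPM (1.35 ± 0.16), with Dpysl3 (1.67 ± 0.17) and Gap43 (1.15 ± 0.18), both of growing neurites. Dcx lost its call without replicate 1, without replicate 3 and without nuclei above 2 times the median UMI number (log2 fold changes of -1.004, -0.90 and -0.80). Gap43 lost it without replicate 1 (0.98) and without those deepest nuclei (0.51). Of immediate early genes, Nr4a3 (1.61 ± 0.32) and Fosl2 (-1.66 ± 0.25) were called, of 14 tested, a share near that over all genes on each side (7.14% against 7.34% and 4.76%). Nr4a3 lost its call without replicate 1 (adjusted p = 0.0575).

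**Figure D5:**
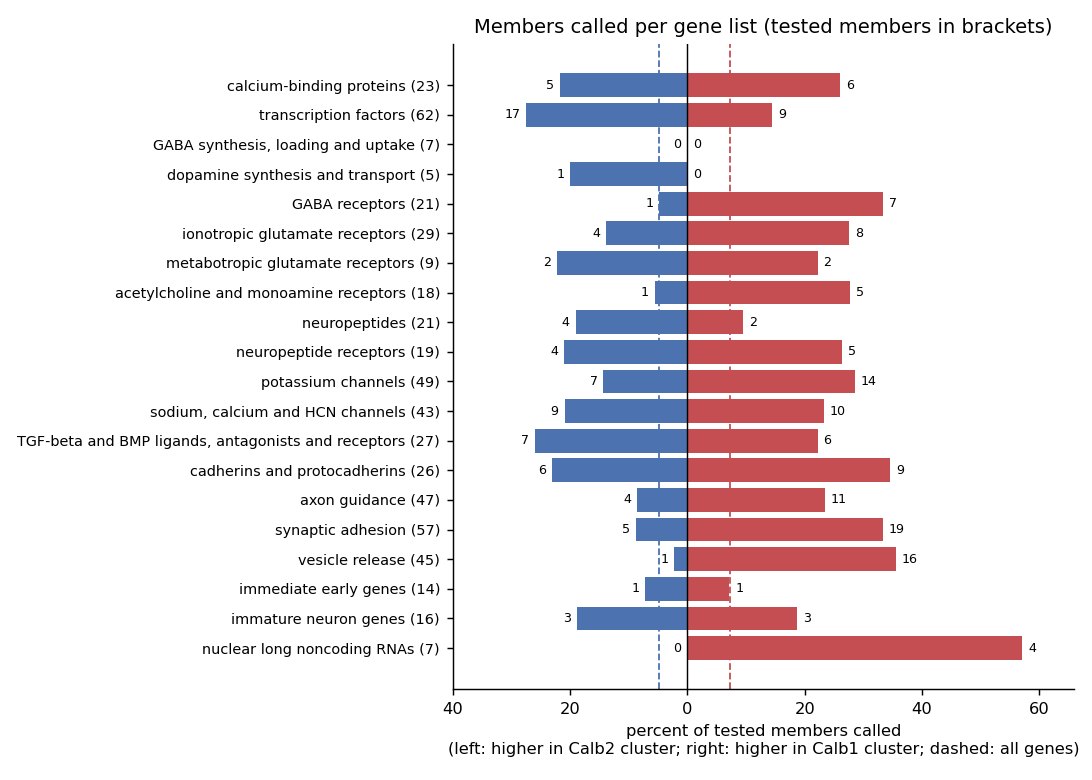
Percent of the tested genes of each of the 20 lists called higher in the Calb1 cluster (red) and in the Calb2 cluster (blue), with the number of calls at each bar and dashed lines at the percent over all genes tested, 7.34% and 4.76%. Vesicle release (16 against 1), GABA receptors (7 against 1) and synaptic adhesion (19 against 5) lean to the Calb1 side and transcription factors (9 against 17) to the Calb2 side.

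Markers of other cell types moved with the comparison in places. Of 5 tested astrocyte markers, 3 were called higher in the Calb2 cluster, among them the glutamate transporter Slc1a3 at 603, 433 and 514 CPM against 23.4, 21.8 and 18.3 CPM (-4.54). The list summed to 71.8 to 104 CPM in the Calb1 and 575 to 785 CPM in the Calb2 cluster, against 3526 to 5681 CPM in cluster 9. The others called were Slc1a2, at 155, 113 and 118 CPM against 54.1, 32.9 and 68.9 CPM (-1.32), and Aqp4, at 6.20, 11.3 and 13.6 CPM against 1.49, 5.01 and 4.29 CPM (-1.42). Gja1 was at 7.198 to 11.5 CPM in the Calb2 and 5.46 to 6.04 CPM in the Calb1 cluster, and Gfap at 7.08 to 10.7 CPM and 2.48 to 3.98 CPM. These were not called, but their libraries lay apart in the same direction. In cluster 9 Gja1 was at 375 to 665 CPM and Gfap at 117 to 184 CPM. Of oligodendrocyte markers 3 of 6 tested were called higher in the Calb2 cluster, with the list at 40.9 to 83.0 CPM against 135 to 162 CPM.

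Of the projection neuron markers, Reln, which encodes an extracellular protein, was higher in the Calb1 cluster, at 366, 378 and 361 CPM against 36.3, 34.0 and 53.0 CPM (3.25). It was the sole call of 5 tested on that list. In the nuclei rich in Fam19a1 it was at 0, 216 and 158 CPM and in the other nuclei of the cluster at 437, 384 and 510.5 CPM. Of 7 tested granule cell markers, Camk4 (1.27) and Meg3 were called higher in the Calb1 cluster, and the list summed to 8045 to 8550 CPM against 4410 to 4602 CPM, most of it Meg3. The oligodendrocyte precursor marker Vcan was called higher in the Calb1 cluster (1.47) and the ensheathing glia marker Fabp7 in the Calb2 cluster (-1.06). The 3 tested microglial markers had adjusted p from 0.656 to 0.909. The part that RNA of other cells has in the called genes was not tested.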

How the data were processed

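RNA of sorted olfactory bulb nuclei was sequenced with a droplet-based kit, as 1 library for each of 3 mice. The deposited tables hold UMI counts for each barcode and gene, obtained by the authors from Cell Ranger (version 3.0.2 in the headers) and not normalized further. A deposited table lists the retained nuclei with cluster, UMI and gene counts, and the percent of mitochondrial UMIs, all computed by the authors, whose clustering in Seurat pooled the mice. The lowest gene number of a listed nucleus was 1001 and the highest mitochondrial share 4.58%. Whether a doublet caller was run is not given in the sources used here, doublets were gated out by scatter in the sort, and none were removed here. Its 7 other per-nucleus columns were not used.

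UMIs of clusters 8 and 7 were summed per mouse. Genes were filtered with filterByExpr, scaled by TMM and tested two-sided with edgeR 4.0.16 (quasi-likelihood test, mouse as a block) under R 4.3.3, and p-values were adjusted by Benjamini-Hochberg over 12353 genes. A gene was called at an adjusted p under 0.05 and a fold above 2. Same-numbered libraries come from the same animal by the labels. Their deviations from the cluster means correlated at 0.107, 0.211 and 0.134, and those of different mice at -0.141 to -0.013. In simulated data of this comparison (12154 genes), 20%, 78%, 100% and 100% of genes changed 1.5, 2, 4 and 8 times passed the adjusted p, and 3.25% of passing genes were false. Intervals are exact and cover counting error only. Shares of nuclei and CPM were computed in Python 3.11.15.

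Named genes were Calb1, Calb2, Foxp2 and Grem1, the 10 called genes per direction of largest fold without overlap and with a mean of at least 20 CPM in the higher cluster, up to 3 called genes per list and direction with at least 10 CPM, and all GABA and dopamine genes. Some genes that this rule names are not reported here. Genes of the lists given with a fold change alone were chosen after their values were seen. The clusters, marker lists and gene lists were chosen with earlier results of these data known. The tables of the authors name no cell types. Coordinates are from GENCODE M21 (GRCm38), and promoters from RefSeq (GRCm38.p6). Alternatives were other scalings, no filter, no block, each mouse left out, other limits on nuclei, thinning, a fit over 6 inhibitory clusters and DESeq2 1.42.0.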

Additional observations from a re-analysis of the deposited data

How the results depend on the processing

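The 907 and 588 genes higher in the Calb1 and Calb2 cluster became 571 to 1175 and 422 to 690 when 1 mouse was left out, with the low ends without replicate 1, where 542 and 408 of the calls were shared. With no replicate block they were 901 and 560, of which 868 and 546 were shared. Under library size, DESeq2 size factors, no filter, nuclei with at least 1500 genes, thinning, the fit over 6 inhibitory clusters, DESeq2 and without nuclei above 2 times the median UMI number, they were 800 to 1205 and 510 to 749. No called gene was called in the other direction under any of the 12 alternatives. Of 103 named genes called, 93 kept their call in every alternative that tested them. Without replicate 1, 10 lost it (Bmp6, Cacna1e, Dcx, Gap43, Kcng2, Kcnq3, Nr4a3, Sv2b, Trpc7 and Vipr1), without replicate 3 Dcx and Trpc7, without the deepest nuclei Dcx, Gap43 and Sv2b, and with DESeq2 Trpc7. The causes were not tested.

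With at least 1500 genes per nucleus, the mean share of nuclei was 4.59% in the Calb1 and 3.64% in the Calb2 cluster. The Calb1 cluster was then the larger in every mouse. Without thinning, and after thinning to 2000 UMIs, the mean percent of Calb1-cluster nuclei with a UMI was 20.4 and 12.6 for Calb1 and 2.85 and 0.784 for Grem1, and without thinning 30.1 for Calb2. In the Calb2 cluster it was 86.3 and 74.9 for Calb2, 6.68 and 3.32 for Foxp2, 31.4 and 20.5 for Grem1, and without thinning 1.26 for Calb1. The alternative without nuclei with 3 or more Fam19a1 UMIs was chosen after seeing the data. Genes with a mean under about 1 CPM rest on few UMIs, and 3 mice limit every comparison.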
